A study of Homo sapiens with 6 samples.

Results

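The EGF receptor family and its ligands were examined by RNA sequencing in LX-2, an established line of human hepatic stellate cells (HSCs). The genes were chosen by name and comprised 3 receptors (EGFR, ERBB2 and ERBB3), 6 ligands (HBEGF, AREG, EREG, TGFA, BTC and NRG1) and the inhibitor ERRFI1. All 10 were found among the 60605 rows with an Ensembl identifier, each on a single row. The LX-2 cells had been cultured for 24 h in conditioned medium from HCT116, an established line derived from a human colorectal carcinoma. In the Vector-CM group (n = 3) the HCT116 cells carried the empty lentiviral vector, and in the FGFBP1-CM group (n = 3) they stably overexpressed FGFBP1 from the Ubi promoter of that vector. FGFBP1 is a secreted protein that binds fibroblast growth factors and carries them from the matrix. Both groups therefore received medium from vector-carrying tumor cells, and no group without conditioned medium was analysed here. The labels do not say whether the 3 libraries of a group came from separate cultures, so the p-values measure the spread between these libraries, which may be technical.

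The EGF receptor family consists of receptor tyrosine kinases that pair after binding a ligand and pass the signal to the RAS and ERK cascade and to PI3-kinase. The ligands are made as membrane-anchored precursors and are released by metalloproteases at the cell surface. EGFR binds HBEGF, AREG, EREG, TGFA and BTC, ERBB3 binds neuregulins such as NRG1, and ERBB2 has no known ligand and acts as a partner of the others. ERRFI1, also called MIG6, binds the kinase domain of activated receptors and blocks it, and its gene is itself induced by the pathway. In HSCs, ligands of this family are known as growth and motility signals.

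The libraries held 14003780 to 18508113 counts in total. Values scaled to library size are given as CPM, the usual scaled counts, here with TMM-adjusted library sizes. A gene without a single count could still stand at 3 counts, which was 0.158 to 0.217 CPM depending on the library, and such floors cover counting error only. Of 13 stellate or myofibroblast markers, 11 had at least 10 counts in every library, while LRAT was at 0 in all libraries and DES had 0 to 4 counts. The summed stellate markers ran from 3569 to 3841 CPM with Vector-CM and from 2769 to 3306 CPM with FGFBP1-CM. VIM alone had 1966 to 2678 CPM across the libraries, SPARC 284 to 549 CPM and TIMP1 253 to 352 CPM. Some of the 11 were low, with ACTA2 at 3.73 to 5.46 CPM, THY1 at 0.950 to 1.28 CPM and PDGFRA at 0.734 to 1.41 CPM. The part of the difference in summed stellate markers in the results below was not tested. Of 19 colorectal epithelial markers, which HCT116 cells could bring, 11 had at most 3 counts in every library, with CEACAM5 and PHGR1 at 0. CLDN4 and ELF3 had at least 10 counts in every library, and CLDN4 alone had 6.67 to 10.1 CPM. The colorectal sum ran from 11 to 12.4 CPM with Vector-CM and from 10.6 to 14.1 CPM with FGFBP1-CM. The 11 hepatocyte markers summed to between 41.1 and 44.1 CPM with Vector-CM and between 18.3 and 28.0 CPM with FGFBP1-CM. Of these markers SERPINA1 alone had 16.2 to 30.6 CPM across the libraries. FGFBP1 itself had 0 to 4 counts per library in the LX-2 cells, in which it was not overexpressed.

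In LX-2 cells the inhibitor ERRFI1 had the highest level, EGFR and HBEGF had similar levels below it, and ERBB2 was lower. Levels of different genes were compared per length, as the FPKM deposited by the authors, in which a count is divided by gene length and library size. ERRFI1 was highest at 29.1 ± 1.03 FPKM (SD, n = 6 libraries), followed by EGFR at 14.7 ± 1.34 and HBEGF at 14.2 ± 1.52. ERBB2 was at 7.18 ± 0.573 FPKM and AREG at 1.82 ± 0.324 FPKM. The other members were below 1 FPKM, with NRG1 at 0.542 ± 0.0506, ERBB3 at 0.355 ± 0.0563, EREG at 0.214 ± 0.0386, TGFA at 0.0963 ± 0.0210 and BTC at 0.0881 ± 0.0510 FPKM (SD, n = 6). Among the 16707 genes tested, 80.8% lay below EGFR in mean FPKM and 4.51% lay below EREG.

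Most steps of this order were larger than the spread between libraries. ERRFI1 exceeded EGFR in 6 of 6 libraries, by 1.99-fold on the mean, and HBEGF exceeded ERBB2 in 6 of 6, by 1.98-fold. AREG exceeded NRG1 by 3.36-fold, NRG1 exceeded ERBB3 by 1.53-fold and ERBB3 exceeded EREG by 1.66-fold, each in 6 of 6 libraries. The ranges of EGFR and HBEGF overlapped, with EGFR higher in 5 of 6 libraries, and so did those of TGFA and BTC, with TGFA higher in 4 of 6. These neighbors did not differ beyond their spread.

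**Figure D1:**
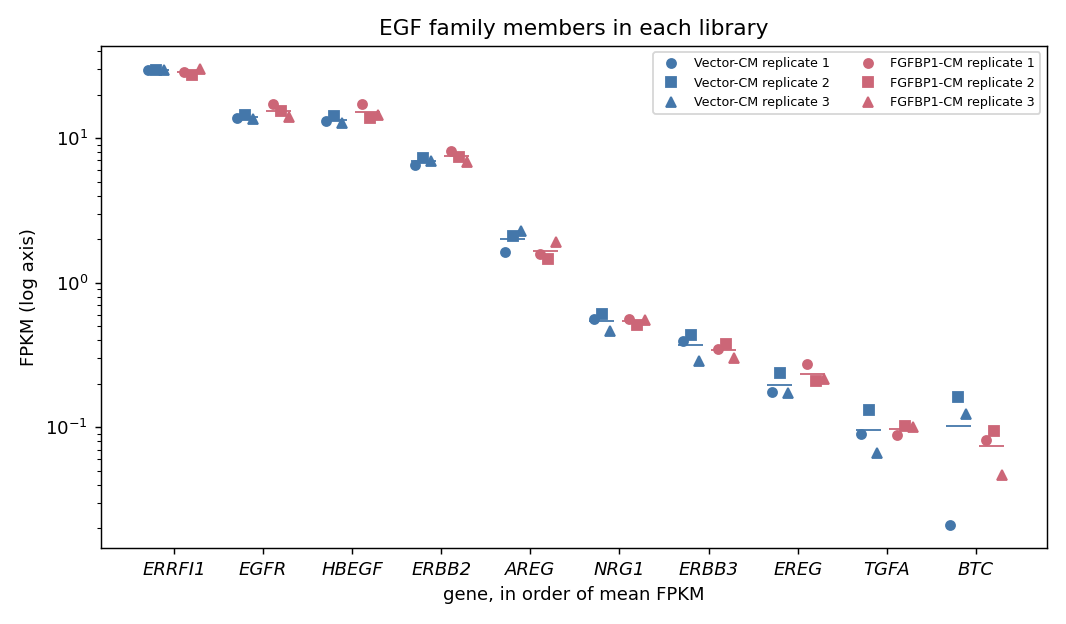
Deposited FPKM (log axis) of each EGF family gene in each of the 6 libraries, ordered by mean level, with the libraries of Vector-CM in blue and of FGFBP1-CM in red and a short line at each group mean. The levels run from 29.1 FPKM for ERRFI1 to 0.0881 FPKM for BTC, and the points of both groups overlap for every gene.

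The order was the same when another gene length was used, but some steps shrank. The FPKM values imply a length of 21398 bases for NRG1, whereas the longest annotated transcript of NRG1 in GENCODE 29 has 5931 bases. For ERBB2 these lengths were 10321 and 4930 bases. With CPM per kilobase of the longest transcript, chosen after the data were seen, AREG exceeded NRG1 by 1.24-fold in place of 3.36-fold, and HBEGF exceeded ERBB2 by 1.18-fold in place of 1.98-fold, each still in 6 of 6 libraries. The level of ERBB2 relative to EGFR was 0.490 ± 0.0153 (SD, n = 6) by FPKM and 0.805 ± 0.0251 with the longest transcript. For the same counts, a longer length gives a lower FPKM.

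**Figure D2:**
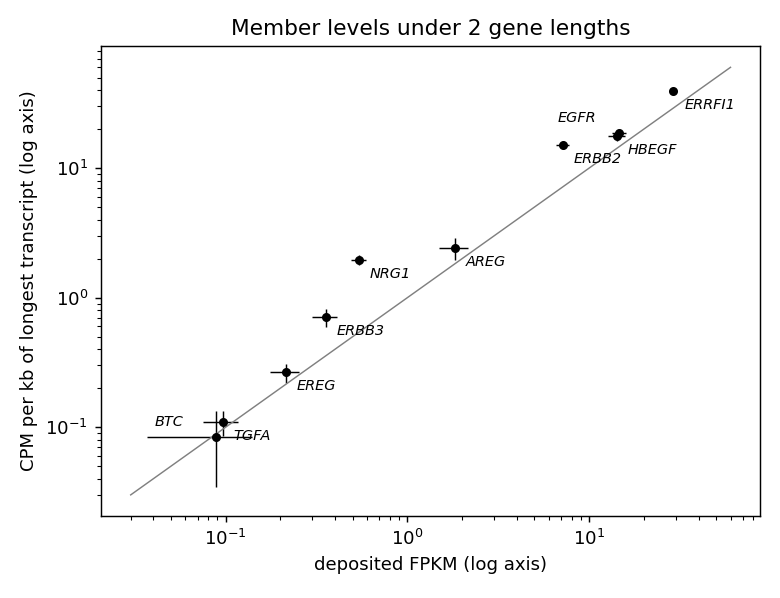
Mean level of each member by the deposited FPKM (horizontal log axis) and as CPM per kilobase of its longest GENCODE 29 transcript (vertical log axis), with bars for the SD over 6 libraries and a grey line at equal values. NRG1 lies farthest above the line, at 1.96 CPM per kilobase against 0.542 FPKM.

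The ligand genes differ in level but code for the same kind of domain. The part that binds the receptor is the EGF-like domain, which is held together by cysteine pairs. Its coding sequence is shown for the 5 EGFR ligands because it is what makes these genes comparable as ligands. The sequences are from GENCODE 29 transcripts (GRCh38), read 5′ to 3′ on the coding strand, with the 6 cysteine codons in capitals.
HBEGF: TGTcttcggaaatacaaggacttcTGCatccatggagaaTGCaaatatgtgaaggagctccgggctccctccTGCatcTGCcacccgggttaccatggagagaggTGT
AREG: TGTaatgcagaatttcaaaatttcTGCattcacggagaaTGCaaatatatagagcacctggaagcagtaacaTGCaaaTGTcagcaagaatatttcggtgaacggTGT
EREG: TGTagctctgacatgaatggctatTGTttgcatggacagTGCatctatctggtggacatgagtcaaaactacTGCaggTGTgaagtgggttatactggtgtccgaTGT
TGFA: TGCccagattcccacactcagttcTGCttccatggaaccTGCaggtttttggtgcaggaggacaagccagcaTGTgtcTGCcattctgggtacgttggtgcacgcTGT
BTC: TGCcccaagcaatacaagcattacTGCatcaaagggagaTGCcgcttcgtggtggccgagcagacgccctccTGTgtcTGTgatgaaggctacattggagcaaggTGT

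All 5 stretches had 108 bases and the same spacing of 7, 4, 10, 1 and 8 residues between neighboring cysteines. The stretches were located with a search pattern of 6 cysteines that fixed the spacings of 7, 1 and 8. It held the other spacings to narrow ranges, so the likeness in spacing follows largely from the search. In each gene an intron split the stretch at the same place, after base 77, so that 77 bases lay in one exon and 31 in the next. The most alike pair was TGFA and BTC, with 68 of 108 bases identical (63.0%), and the least alike was EREG and TGFA, with 50 of 108 (46.3%). HBEGF, the ligand with the highest level, shared 66 bases with BTC, the ligand with the lowest.

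EREG, AREG and BTC lie close together on chromosome 4 (GRCh38, GENCODE 29), EREG at 74365143 to 74388751 and AREG at 74445134 to 74455009 on the plus strand, and BTC at 74744759 to 74794686 on the minus strand. HBEGF lies on chromosome 5 (140332843 to 140346631, minus strand), TGFA on chromosome 2 (70447280 to 70554193, minus strand) and EGFR on chromosome 7 (55019021 to 55211628, plus strand). The submitters' processing notes name the build hg18, so these coordinates need not be those used for counting. In GENCODE 29, exons of EGFR, ERBB2 and ERRFI1 overlap genes on the opposite strand. EGFR shares 186 bp with EGFR-AS1 (11 to 25 counts per library), ERRFI1 155 bp with an antisense gene (8 to 28 counts), and ERBB2 571 bp with MIEN1 (436 to 525 counts) and 194 bp with PGAP3 (71 to 113 counts). Whether counting used strand is not given in the sources used here, so part of these reads could belong to either gene.

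The design asks whether tumor cell-derived FGFBP1 changes gene expression in HSCs, and for this family no change passed the test. Of the 10 genes 8 had enough counts to be tested with edgeR, and none had an adjusted p under 0.05, against 0.120% of all 16707 genes tested, of which 0.0539% were higher and 0.0658% lower in FGFBP1-CM. None of the 8 had an unadjusted p under 0.05 either, against 21.7% of all genes tested. The groups overlapped for each of the 8, whereas they did not overlap for 26.0% of all genes tested. The log2 fold changes of FGFBP1-CM over Vector-CM ran from -0.30 for AREG to 0.24 for EREG, 4 of them positive and 4 negative, with a median of 0.02 beside a median of 0.003 over all genes tested. With bulk RNA, fewer cells that transcribe a gene and less RNA per cell cannot be told apart.

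Among the receptors, EGFR, which binds most ligands of the family, had 173.0, 184 and 173 CPM in Vector-CM and 208, 192 and 173 CPM in FGFBP1-CM. FGFBP1-CM replicate 1 was the highest of the 6 libraries. FGFBP1-CM replicate 3 was level with Vector-CM replicates 1 and 3, and the groups overlapped. The log2 fold change of EGFR was 0.11 (SE 0.0737, 95% interval -0.05 to 0.27; adjusted p = 0.393, edgeR), an interval of 0.969-fold to 1.21-fold. With replicate 1 of FGFBP1-CM left out, the estimate was 0.05 (adjusted p = 0.802, edgeR), and with replicate 3 left out it was 0.18 (adjusted p = 0.175, edgeR).

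ERBB2, the partner receptor, had 67.4, 76.0 and 73.2 CPM in Vector-CM and 82.0, 76.7 and 70.0 CPM in FGFBP1-CM. FGFBP1-CM replicate 1 was again highest, and FGFBP1-CM replicate 3 lay within the range of the Vector-CM libraries. The log2 fold change of ERBB2 was 0.08 (SE 0.0763, 95% interval -0.08 to 0.24; adjusted p = 0.572, edgeR). Its FPKM relative to EGFR was 0.495 ± 0.0210 in Vector-CM and 0.484 ± 0.00687 in FGFBP1-CM (SD, n = 3; p = 0.5, two-sided exact permutation test). An exact test of 3 libraries against 3 cannot go below 0.1.

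ERBB3, the neuregulin receptor with a weak kinase, was scarce. It had 83, 71 and 51 counts in Vector-CM and 75, 70 and 57 counts in FGFBP1-CM, which was 4.40 ± 0.873 against 3.95 ± 0.453 CPM (SD, n = 3). The highest and the lowest library of ERBB3 both belonged to Vector-CM. Its log2 fold change was -0.16 (SE 0.185, 95% interval -0.56 to 0.24; adjusted p = 0.654, edgeR). It ran from -0.30 without Vector-CM replicate 3 to -0.04 without Vector-CM replicate 2. By FPKM, ERBB3 was 0.0203 to 0.0298 of EGFR across the 6 libraries, and with the longest transcript as the length it was 0.0315 to 0.0463.

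HBEGF, a heparin-binding ligand of EGFR, was the main ligand at the RNA level. It had 710, 596 and 582 counts in Vector-CM and 944, 652 and 698 counts in FGFBP1-CM. On the CPM scale HBEGF was 39.6, 43.1 and 39.2 in Vector-CM and 49.8, 40.9 and 42.7 in FGFBP1-CM. Only FGFBP1-CM replicate 1 lay above all Vector-CM libraries. The log2 fold change of HBEGF was 0.13 (SE 0.0855, 95% interval -0.05 to 0.32; adjusted p = 0.389, edgeR), and with a library left out it ran from 0.04 without FGFBP1-CM replicate 1 (adjusted p = 0.840, edgeR) to 0.19 without FGFBP1-CM replicate 2 (adjusted p = 0.222, edgeR).

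EGFR, ERBB2, HBEGF and EREG had their highest CPM in FGFBP1-CM replicate 1, as did 29.5% of all genes tested. The 4 positive fold changes were those of these genes. Leaving out FGFBP1-CM replicate 1 gave log2 fold changes of 0.05, 0.03, 0.04 and 0.11, in the same order, against 0.11, 0.08, 0.13 and 0.24 with it. Because this library was highest for these genes, lower values without it follow from the choice. Without FGFBP1-CM replicate 3 the values were 0.18, 0.14, 0.16 and 0.29, and EREG reached 0.39 without Vector-CM replicate 2.

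AREG, a ligand of EGFR that also binds heparan sulfate, was the next ligand by level. AREG had 48, 48 and 57 counts in Vector-CM and 48, 38 and 51 counts in FGFBP1-CM, which was 2.68, 3.47 and 3.84 CPM against 2.53, 2.38 and 3.12 CPM. FGFBP1-CM replicates 1 and 2 were below all Vector-CM libraries and replicate 3 was not. The log2 fold change was -0.30 (SE 0.204, 95% interval -0.74 to 0.14; adjusted p = 0.409, edgeR), the lowest of the 8. It ranged from -0.45 without Vector-CM replicate 1 to -0.19 without Vector-CM replicate 3 when a library was left out.

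EREG, a ligand of EGFR and ERBB4 encoded next to AREG, had 18, 19 and 15 counts in Vector-CM and 29, 19 and 20 counts in FGFBP1-CM. Its log2 fold change was 0.24 (SE 0.266, 95% interval -0.33 to 0.81; adjusted p = 0.636, edgeR). With so few counts the interval was wide, from 0.793-fold to 1.76-fold, and the data do not separate changes within that range. EREG and AREG had fold changes of opposite sign, and neither differed from 0 in the test.

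NRG1, a neuregulin that binds ERBB3, had 215, 182 and 150 counts in Vector-CM and 223, 174 and 193 counts in FGFBP1-CM. The FGFBP1-CM libraries lay inside the range of the Vector-CM libraries on the CPM scale, at 11.5 ± 0.499 against 11.8 ± 1.54 CPM (SD, n = 3). Its log2 fold change of -0.03 (SE 0.120, 95% interval -0.29 to 0.23; adjusted p = 0.910, edgeR) had the opposite sign in 5 of 16 alternatives.

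TGFA and BTC, both EGFR ligands, had too few counts to be tested. TGFA had 8, 9 and 5 counts in Vector-CM and 8, 8 and 8 counts in FGFBP1-CM. BTC had 1, 6 and 5 counts in Vector-CM and 4, 4 and 2 counts in FGFBP1-CM, so that some BTC values lay under the floor that a count of 0 allows. No fold change is given for either gene.

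ERRFI1, the inhibitor of the receptors, had 124.9, 124.7 and 126.9 CPM in Vector-CM and 116, 115 and 125.2 CPM in FGFBP1-CM. FGFBP1-CM replicates 1 and 2 lay below the Vector-CM libraries and replicate 3 lay among them. The log2 fold change was -0.08 (SE 0.0625, 95% interval -0.22 to 0.05; adjusted p = 0.475, edgeR), the smallest standard error of the 8. By FPKM, ERRFI1 was 2.16, 2.03 and 2.20 times EGFR in Vector-CM and 1.67, 1.79 and 2.17 times EGFR in FGFBP1-CM (p = 0.3, two-sided exact permutation test).

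**Figure D3:**
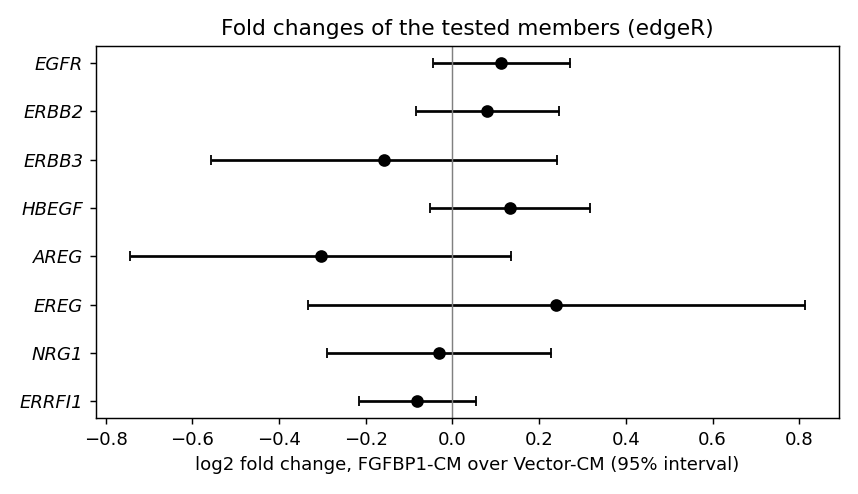
Log2 fold change of FGFBP1-CM over Vector-CM (horizontal axis) for the 8 tested genes, with points for the edgeR estimate and bars for its 95% interval. All intervals include 0, and those of AREG, EREG and ERBB3, the genes with the fewest counts, are widest.

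Among the 6 member ligands, the mix was dominated by HBEGF in every library. The neuregulin NRG2 is not a member and is left out of the sum and the shares. Its mean of 1.29 ± 0.0548 FPKM (SD, n = 6) was below that of AREG and above those of NRG1, EREG, TGFA and BTC. The summed FPKM of the 6 ligands was 15.7, 17.5 and 15.9 in Vector-CM and 19.6, 16.0 and 17.2 in FGFBP1-CM, a difference of 1.28 (p = 0.4, two-sided exact permutation test). The difference was 0.263 without FGFBP1-CM replicate 1 and 2.08 without FGFBP1-CM replicate 2. HBEGF gave 84.2%, 81.5% and 80.5% of this sum in Vector-CM and 86.8%, 85.2% and 83.6% in FGFBP1-CM. AREG gave 10.4%, 12.0% and 14.4% in Vector-CM and 8.04%, 9.05% and 11.1% in FGFBP1-CM. The HBEGF share was 3.13 percentage points higher and the AREG share differed by -2.82 points in FGFBP1-CM (p = 0.2 for each, two-sided exact permutation test), and the groups overlapped in both. Over the 6 libraries NRG1 gave 2.87% to 3.56%, EREG 1.09% to 1.40%, TGFA 0.420% to 0.749% and BTC 0.134% to 0.925%. The shares of a library have a fixed sum, so they do not vary independently. After Benjamini-Hochberg adjustment over the 10 sums, shares and ratios compared, the lowest adjusted p was 0.556 (exact permutation tests). With the longest transcript as the length, HBEGF gave 75.9% to 82.2% and NRG1 7.81% to 9.57%. Ligand protein in the conditioned medium was not measured in these data.

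**Figure D4:**
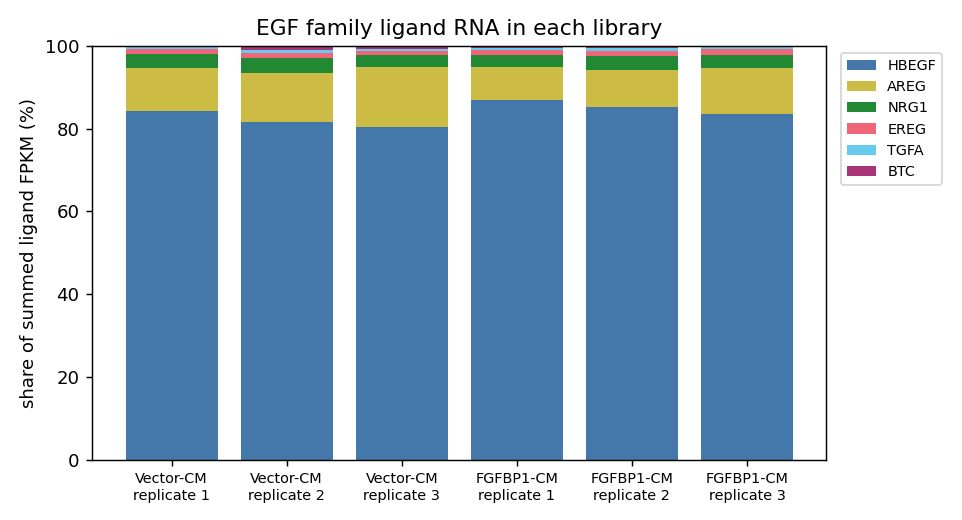
Share of the summed ligand FPKM (vertical axis, percent) given by each of the 6 ligands in each library. HBEGF takes 80.5% to 86.8% of every bar and AREG most of the rest, with NRG2 not part of the sum.

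Other genes of the pathway were taken from a list of 48, of which 43 were tested. None passed at an adjusted p under 0.05, and 10 (23.3%) had an unadjusted p under 0.05, 7 higher and 3 lower in FGFBP1-CM, against 21.7% of all genes tested. The median log2 fold change of the 43 was -0.02. The groups did not overlap for 16 of the 43 (37.2%), against 26.0% of all genes tested. SOS2, RHBDF1, EPS8, SHC1, FOS, DUSP4, PHLDA1 and USP8 are described because they had the smallest unadjusted p of the 43, and the other tested genes named with them were chosen for their role after their values were seen.

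Of the other ligands and receptors on the list, 5 had few counts and NRG2 did not. EGF, the ligand that names the family, had 5 to 11 counts per library, EPGN 0 to 9, NRG3 0 to 2, NRG4 0 to 5 and ERBB4 1 to 5, and these 5 genes were not tested. NRG2, another neuregulin, had 85 to 107 counts per library and a mean of 1.29 ± 0.0548 FPKM (SD, n = 6). This was above the 0.542 FPKM of NRG1, but by CPM NRG2 was lower, at a mean of 5.93 against 11.6. The order of these genes thus depends on the gene length, and no level by longest transcript was made for NRG2. NRG2 was tested, and its estimate was -0.02 on the log2 scale (adjusted p = 0.946, edgeR).

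The genes for ligand release were all measured. ADAM17, the main protease that frees AREG, TGFA and HBEGF, averaged 76.8 ± 3.56 CPM with Vector-CM and 74.4 ± 3.90 CPM with FGFBP1-CM (SD, n = 3). RHBDF1, an iRhom that escorts ADAM17 to the cell surface, had 103, 87.7 and 95.1 CPM in Vector-CM and 61.5, 81.7 and 71.3 CPM in FGFBP1-CM. All FGFBP1-CM libraries were below all Vector-CM libraries for RHBDF1, with replicate 1 lowest. Its log2 fold change was -0.42 (SE 0.0959, 95% interval -0.63 to -0.21), just short of the threshold (adjusted p = 0.0634, edgeR), and -0.32 without FGFBP1-CM replicate 1 (adjusted p = 0.0767, edgeR). It passed in 3 of 16 alternatives, which were no filter, DESeq2 and the fit without FGFBP1-CM replicate 2. Over all genes these 3 called 1382 of 38002, 580 of 12215 and 883 of 17133, against 20 of 16707 in the fit reported. On the log2 scale RHBDF2 stood at -0.14 (adjusted p = 0.432, edgeR) and ADAM10 at -0.07 (adjusted p = 0.695, edgeR).

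Among the adaptors and effectors, the genes nearest to the threshold went both ways. SOS2, an exchange factor that activates RAS, had 42.0, 37.4 and 41.0 CPM in Vector-CM and 57.6, 48.2 and 55.1 CPM in FGFBP1-CM, with no overlap. The estimate for SOS2 was 0.42 on the log2 scale (SE 0.0826, 95% interval 0.24 to 0.59; adjusted p = 0.0568, edgeR), and it passed in 6 of 16 alternatives, among them the replicate block (adjusted p = 0.0465, edgeR). SHC1, an adaptor that binds phosphorylated EGFR, had 253, 271 and 249.8 CPM in Vector-CM and 212, 241 and 205 CPM in FGFBP1-CM, which was -0.23 on the log2 scale (SE 0.0724; adjusted p = 0.105, edgeR). SHC1 passed in 1 of 16 alternatives, the fit without FGFBP1-CM replicate 2.

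Of 11 genes for receptor inhibition and turnover, USP8, which removes ubiquitin from internalized receptors, had the smallest p, and its estimate was 0.19 on the log2 scale (adjusted p = 0.173, edgeR). It was 0.12 without Vector-CM replicate 2 and 0.11 with the GC and length correction. The log2 fold change was -0.04 for CBL, a ubiquitin ligase of the receptors, and -0.10 for LRIG1, a membrane inhibitor (adjusted p = 0.771 and 0.362, edgeR). Among 6 genes for endocytic sorting, EPS8, a substrate of the EGFR kinase, had 124.4, 115 and 124.0 CPM in Vector-CM and 148.5, 138.5 and 149 CPM in FGFBP1-CM. All FGFBP1-CM libraries were above all Vector-CM libraries for EPS8. The estimate for EPS8 was 0.26 on the log2 scale (SE 0.0642, 95% interval 0.12 to 0.40; adjusted p = 0.0680, edgeR). EPS8 passed in the same 3 of 16 alternatives as RHBDF1.

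Of 14 genes of ERK output, 9 had a positive and 5 a negative fold change, with a median of 0.04 and none past the threshold. FOS, an immediate early transcription factor, had 2.40, 2.31 and 2.49 CPM in Vector-CM and 3.43, 3.70 and 3.49 CPM in FGFBP1-CM, with 32 to 65 counts per library. Its log2 fold change was 0.56 (SE 0.177, 95% interval 0.17 to 0.94; adjusted p = 0.111, edgeR), and it passed in none of the 15 alternatives that gave an adjusted p. PHLDA1 and the ERK phosphatase gene DUSP4 stood at 0.22 and 0.23 on the log2 scale (adjusted p = 0.149 and 0.135, edgeR). For both, the groups did not overlap. They did not overlap either for SPRY4, which was lower at -0.17 on the log2 scale, or for SPRED1 at 0.07 (adjusted p = 0.261 and 0.550, edgeR). PHLDA1 was highest in FGFBP1-CM replicate 1, at 843 CPM against 697 and 698 CPM in the other libraries of that group, and its estimate was 0.12 without that library (adjusted p = 0.414, edgeR).

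**Figure D5:**
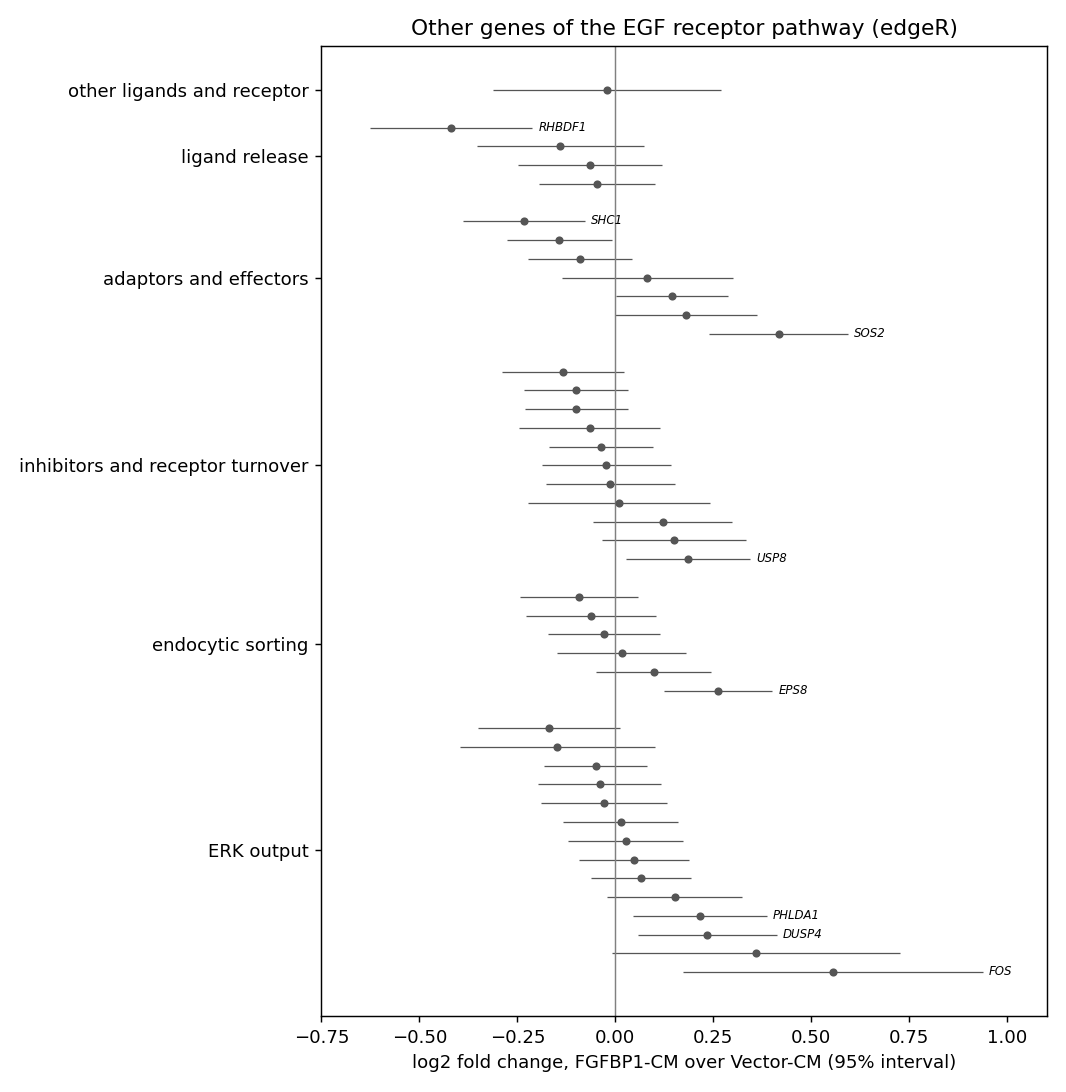
Log2 fold change of FGFBP1-CM over Vector-CM (horizontal axis) for the 43 tested pathway genes, grouped by role, with points for the edgeR estimate and bars for its 95% interval. The 8 genes with the smallest unadjusted p are named, and RHBDF1 at -0.42 and SOS2 at 0.42 lie on opposite sides of 0.

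The profile of EGFR over the 6 libraries was shared by many genes. By the root mean square difference of log2 CPM, each gene centered on its own mean, PSMC1, CAPN2, SASH1 and ITPRIPL2 were among the closest, at 0.0182 to 0.0239. A difference under 0.1 was found for 2727 other genes, so this likeness is a description of 6 libraries and singles out no small group.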

How the data were processed

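LX-2 cells in Vector-CM and FGFBP1-CM (3 libraries each, 24 h) were grouped by their labels. HISAT2 2.0.5 and featureCounts 1.5.0-p3 were used by the authors for alignment and counting of the paired reads, and raw counts per gene were deposited. They also deposited FPKM computed from gene length and count. The processing notes name hg18, and the annotation release is not given in the sources used here. Protocols describe poly(A) selection and ribosomal RNA removal.

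Counts were fitted with edgeR 4.0.16 (R 4.3.3): filterByExpr, TMM scaling, quasi-likelihood F-test and Benjamini-Hochberg adjustment over 16707 genes, threshold 0.05. The standard error was the size of the log2 fold change over the square root of F. CPM are TMM-scaled. Sums, shares and ratios of FPKM were compared by exact permutation tests. Annotation was GENCODE 29 (GRCh38), which held 96.3% of the table's Ensembl identifiers. Members and lists were chosen with earlier results of these data known. The genes named were all members, the 8 other pathway genes with the smallest unadjusted p, the 5 genes closest to EGFR in profile (1 is not reported here), the 5 pathway genes too low to test, and a few per role chosen after their values were seen.

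On simulated counts for the comparison of FGFBP1-CM with Vector-CM (16707 genes, 200 changed 2-fold, 3 draws), 84.0% of changed genes were recovered and 5.42% of calls were false. Each gene was simulated with the typical spread of genes at its level, not with its own spread. Only 2-fold changes were simulated, so the recovery does not apply to changes as small as those of the members (0.810-fold to 1.18-fold). The alternatives tried were no filter, a mean of at least 1 CPM, scaling by RLE or by library size alone, DESeq2 1.42.0, limma 3.58.1 on log2(FPKM + 1) and log2(FPKM + 0.1), a replicate block, leaving out each library, an unadjusted threshold, and a GC and length correction (loess, span 0.3) added after the data were seen.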

Additional observations from a re-analysis of the deposited data

How the results depend on the processing

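No EGF family gene passed in any of the 16 alternatives, which include the replicate block, DESeq2, limma on FPKM, the GC and length correction and each library left out, and DESeq2 gave no adjusted p for AREG and EREG. The sign of NRG1 changed with library size only (log2 fold change 0.00291), in limma with a pseudocount of 1 (0.00120) or 0.1 (0.00626) on the FPKM, without Vector-CM replicate 2 (0.0528) and without FGFBP1-CM replicate 2 (0.00419), and its estimates with a library left out ran from -0.13 to 0.0528. The other 7 tested members kept their sign. The number of pathway genes past the threshold was 0 of 43 tested in the fit reported. It was 5 of 48 with no filter, against 1382 of 38002 over all genes, and 3 of 42 with DESeq2, against 580 of 12215. With the replicate block it was 1 of 43, against 90 of 16707 over all genes. With the GC and length correction it was 1 of 43, against 148 of 16401, and at an unadjusted p 10 of 43, against 3630 of 16707. With a library left out it ran from 0 to 4 of 44. It was highest without FGFBP1-CM replicate 2, where 883 of 17133 differed over all genes. The 5 with no filter were EGR1, EPS8, PHLDA1, RHBDF1 and SOS2. Counts over all genes in the same settings follow below.

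Over all genes, 20 of 16707 differed in the fit reported. The number was 38 with RLE scaling, 1 and 5 in limma with those pseudocounts and 3630 at an unadjusted p, each of 16707. It was 1382 of 38002 with no filter, 11 of 15027 with a mean of at least 1 CPM and 580 of 12215 with DESeq2. With the GC and length correction it was 148 of 16401, and 163 of 16401 with that correction and the replicate block. It ranged from 4 to 883 with a library left out, lowest without Vector-CM replicate 2 or 3 and highest without FGFBP1-CM replicate 2. Those fits tested 17084 to 17234 genes. For all these counts, the cause was not tested. Same-numbered libraries deviated from their group means with correlations of -0.0940, -0.0265 and 0.111 over 16707 genes. With so few libraries per group, these correlations cannot decide whether same-numbered libraries were handled together. With the replicate block 90 of 16707 genes differed. With a library left out, the difference in summed ligand FPKM ran from 0.263 to 2.08, that in ERRFI1 relative to EGFR from -0.401 to -0.150, and that in ERBB2 relative to EGFR from -0.0225 to -0.00186. The difference in the TGFA share changed sign, from -0.108 to 0.0565 percentage points. The GC and length correction moved ERBB2 to 0.13, EREG to 0.16 and ERRFI1 to -0.13 on the log2 scale. Depth limits EREG, AREG and ERBB3 most, and leaves TGFA and BTC untested.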
